A study of Mus musculus with 10 samples.

Results

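The macroautophagy machinery was described in the tibialis anterior, a fast shin muscle, of the mouse through 35 genes of the 13492 in the deposited table. A gene was taken when its symbol began with Atg and a digit, or was Ulk1, Ulk2, Becn1, Rb1cc1, Pik3c3, Pik3r4, Uvrag, Wipi1, Wipi2, Map1lc3a, Map1lc3b, Gabarap, Gabarapl1, Gabarapl2, Sqstm1, Nbr1, Optn or Calcoco1. They were sorted by role into 15 genes of initiation, 16 of conjugation and 4 cargo receptors. All 35 had a mean of at least 0 log2 CPM (log2 of counts per 1000000 in a library), so all entered the tests. The knockout group is 5 libraries labelled Lrtm1 KO and the control group is 5 labelled Lrtm1 WT, which the series' design text calls floxed controls. All mice had a C57BL/6 background, were 6 months old and had fasted for 3 h, and 3 litters each gave libraries of both genotypes. The design text gives a smaller number per group than the labels; the libraries were used as labelled. Sources used here do not state which part of Lrtm1 was deleted, whether a Cre line was used, or the sex of the mice. The labels do not say whether libraries came from separate animals, and the p-values therefore describe only how these libraries vary, which may be technical.

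Macroautophagy wraps cytoplasm in a double membrane and delivers it to the lysosome. The ULK1 kinase complex starts the process, and a lipid kinase complex built on Beclin 1 and VPS34 marks the growing membrane with phosphatidylinositol 3-phosphate (PI3P). A pair of ubiquitin-like conjugation systems then attaches LC3 and GABARAP proteins (the ATG8 family) to the membrane, where cargo receptors bind them. In muscle the process runs at a basal rate, rises in fasting, and is held down by insulin through mTOR complex 1, which phosphorylates ULK1, and through inhibition of FoxO factors, which induce several of these genes.

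None of the 35 genes passed the test between genotypes once the terms that the authors had removed from the values were counted (limma, adjusted p of at least 0.0886 in each). In that fit 41 of the 12223 genes tested passed, or 0.335%, and 6 of the 35 had an unadjusted p under 0.05, or 17.1% beside 10.1% of all genes tested. The authors' values hold only 3 of the 6 residual dimensions that genotype and litter leave, and a fit that ignores this makes standard errors too small. In that second fit 3 members were higher in the libraries labelled knockout, Ulk1, Optn and Gabarapl1, where 5.15% of all genes were higher. In the same fit 2 members were lower, Atg4a and Atg101, where 3.48% of all genes were lower. The 5 genes differed by 1.23-fold or less. In that second fit 0 of the 35 passed without litter 108 or without litter 110, where only 15 and 108 of all genes did. Without litter 112, 10 of the 35 passed in that fit, where 2220 of all genes did. The median log2 difference over the 35 was 0.014, beside -0.004 over all genes tested, and 18 lay above 0 and 17 below. The 95% interval of every member lay inside a 1.5-fold change in either direction, but the standard errors are lower bounds: variation shared by genotype and the terms taken out is lost from the table.

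**Figure D1:**
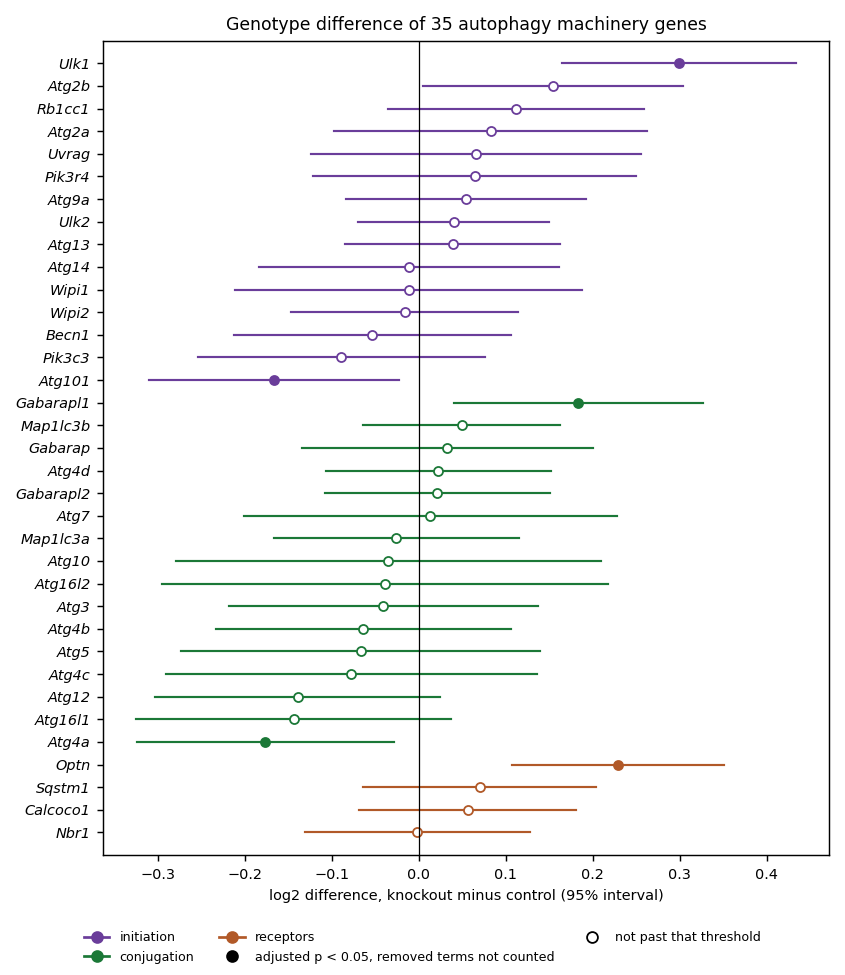
Log2 difference between knockout and control (x axis) for each of the 35 genes (y axis), with 95% intervals from the fit that counts the removed terms, coloured by role. Filled points are the 5 genes past the threshold only when those terms are not counted; Ulk1 lies farthest to the right at 0.30 and Atg4a farthest to the left at -0.18.

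The DNA upstream of 4 of these 5 genes is shown because they are the members that came closest to a difference; Atg4a has more than 1 listed start and is left out. Each run ends before the first annotated exon, is read 5′ to 3′ on the gene's strand, and has the GC box (GGGCGG or its reverse complement CCGCCC, a site that Sp1-type factors bind) in capitals. Sequences are RefSeq's, on build GRCm38.p6. Ulk1 is at chr5:110810098-110810331 on the minus strand and holds 5 GC boxes. Optn is at chr2:5064118-5064367 on the minus strand with 1, Gabarapl1 at chr6:129532942-129533159 on the plus strand with 1, and Atg101 at chr15:101284051-101284271 on the plus strand with 0.
Ulk1: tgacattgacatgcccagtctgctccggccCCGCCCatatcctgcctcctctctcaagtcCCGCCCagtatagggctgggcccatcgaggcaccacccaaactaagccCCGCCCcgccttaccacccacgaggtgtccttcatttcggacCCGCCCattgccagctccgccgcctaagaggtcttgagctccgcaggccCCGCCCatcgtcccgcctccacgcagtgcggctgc
Optn: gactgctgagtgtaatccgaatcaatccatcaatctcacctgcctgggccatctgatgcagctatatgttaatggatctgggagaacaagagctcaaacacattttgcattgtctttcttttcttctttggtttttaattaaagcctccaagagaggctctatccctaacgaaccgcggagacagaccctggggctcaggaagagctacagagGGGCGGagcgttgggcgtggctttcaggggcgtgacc
Gabarapl1: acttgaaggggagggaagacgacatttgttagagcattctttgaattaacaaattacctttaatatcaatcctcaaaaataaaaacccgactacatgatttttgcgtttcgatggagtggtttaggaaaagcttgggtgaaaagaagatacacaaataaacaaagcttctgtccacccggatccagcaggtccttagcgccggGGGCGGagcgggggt
Atg101: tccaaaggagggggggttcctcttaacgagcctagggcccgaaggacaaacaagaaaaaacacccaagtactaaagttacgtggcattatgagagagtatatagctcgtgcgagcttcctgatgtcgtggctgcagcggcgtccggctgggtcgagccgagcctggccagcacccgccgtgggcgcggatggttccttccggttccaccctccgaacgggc
In the 250 bases before a listed start, 20 of the 29 members with an entry held a GC box on either strand, or 69.0%, beside 35.4% of all 27025 genes of the promoter table. CACGTG, the core of the E-box that TFEB-type factors bind, stood before Atg3, Atg5 and Atg7, or 10.3% of the 29 beside 6.86% of all genes. GTAAACA or TGTTTAC, a strict form of the core letters bound by FoxO factors, stood before 0 of the 29, beside 3.54% of all genes. Looser forms of that core were not searched. The shares over all genes also cover genes with no row in the deposited values, whereas every member passed the expression filter. The shares among expressed genes alone were not computed. A match is only a match of letters.

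Library medians ran from 3.35 to 3.36 log2 CPM; the read depth is unknown. Lrtm1, the targeted gene, was 1.35-fold higher, not lower, in libraries with the knockout label, with means of 6.12 ± 0.10 and 5.68 ± 0.07 log2 CPM (SD, n = 5 each; limma adjusted p = 0.0344), so every direction here is between libraries as labelled. A level over the whole gene checks nothing if the deletion leaves the counted transcript in place. That call was lost in 8 of 10 fits without 1 library, with log2 differences of 0.31 to 0.50 over all 10. Those fits leave 2 residual degrees of freedom and keep the removed terms as computed over 10 libraries. The terms can then overlap with genotype, so a lost call does not show that the difference rests on a single library. Within litters 108, 110 and 112 the Lrtm1 difference was 0.55, 0.41 and 0.38. All 8 muscle fibre markers were present, with a summed level of 124890 to 129356 CPM in libraries labelled knockout and 113571 to 129024 in control libraries. Of the other cell types with fixed marker lists, the summed levels overlapped between groups for endothelium, macrophages, fibroblasts, tendon, Schwann cells, red cells and lymphocytes. They did not for adipocytes, at 69.1 to 79.5 CPM over 7 markers in knockout and 80.0 to 96.8 in control libraries, where 4 of 6 tested markers were lower with the removed terms not counted and 0 with them counted. Most of that sum was Fabp4, at 62.7 ± 2.96 and 64.6 ± 1.86 CPM (SD, n = 5 each), which endothelium also expresses. The other tested adipocyte markers differed by more than any member, but at low levels. In libraries labelled knockout the level was 4.62-fold lower for Lep, 2.30-fold for Cidec, 1.98-fold for Adipoq, 1.86-fold for Plin1 and 1.53-fold for Cfd. Of these Plin1 passed in neither fit. Mean CPM in knockout and control libraries was 0.72 and 3.34 for Lep, 0.96 and 2.23 for Cidec, and 1.73 and 3.45 for Adipoq. It was 1.41 and 2.65 for Plin1, and 5.51 and 8.50 for Cfd. In bulk muscle, fewer cells of a type and less RNA per cell cannot be told apart, and the part of adipocyte content in the results below was not tested.

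Among the initiation genes, the kinase complex held differences in both directions. Ulk1, the kinase that starts autophagosome formation, had levels of 6.96, 6.92, 6.89, 6.82 and 6.997 log2 CPM in the libraries labelled knockout and 6.57, 6.60, 6.67, 6.56 and 6.69 in the controls. Every library labelled knockout lay above every control. The log2 difference was 0.30 (SE 0.061), or 1.23-fold, with a limma adjusted p of 0.0886 (0.00615 with the removed terms not counted). The gene lies on chromosome 5 from 110784488 to 110810097 on the minus strand (GENCODE M21, GRCm38). Atg101, a small subunit that holds ATG13 in the complex, went the other way. It had 4.25, 4.29, 4.28, 4.30 and 4.25 log2 CPM in the libraries labelled knockout and 4.45, 4.47, 4.40, 4.42 and 4.47 in control libraries. All libraries labelled knockout lay below all controls, and the log2 difference was -0.17 (SE 0.065; adjusted p = 0.413, or 0.0147 with the removed terms not counted). Atg101 is a plus-strand gene of chromosome 15 (101284272 to 101290945). The other subunits were closer to 0. The log2 difference was 0.040 for Ulk2, a second ULK kinase, 0.039 for the adaptor Atg13 and 0.11 for Rb1cc1, which encodes the scaffold FIP200. Ulk2 lay at 7.04 to 7.07 log2 CPM in the libraries labelled knockout and 7.004 to 7.033 in control libraries, so its groups did not overlap, with an adjusted p of 0.839.

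None of the 5 lipid kinase genes passed in either fit, and their log2 differences ran from -0.089 to 0.066. Becn1, which encodes the core subunit Beclin 1, had 5.73, 5.67, 5.65, 5.73 and 5.81 log2 CPM in the libraries labelled knockout and 5.81, 5.69, 5.93, 5.76 and 5.68 in control libraries. The groups overlapped through most of their range, and the log2 difference was -0.053 (SE 0.072; adjusted p = 0.858). Pik3c3, the catalytic subunit VPS34, was at the low end (-0.089), and Uvrag, which replaces Atg14 in the complex that acts on late endosomes, at the high end (0.066). Pik3r4, the regulatory subunit VPS15, differed by 0.065 and Atg14, which directs the complex to the forming autophagosome, by -0.011.

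Of the 5 genes that supply membrane or read PI3P, none passed in either fit. Atg2b, a lipid transfer protein that bridges the endoplasmic reticulum and the growing membrane, came closest. It had 4.88, 4.81, 4.83, 4.71 and 4.85 log2 CPM in the libraries labelled knockout and 4.60, 4.65, 4.67, 4.70 and 4.70 in control libraries. The groups did not overlap, but knockout replicate 4 lay beside the highest control, at 4.705 against 4.703. The log2 difference was 0.15 (SE 0.068, limma adjusted p = 0.478, or 0.0527 with the removed terms not counted). The fit without control replicate 1 gave 0.049, below litters 110 and 112 (0.17 and 0.080), which stay whole there. That fit keeps the removed terms as computed over 10 libraries, and they can then overlap with genotype. The Atg2b paralog Atg2a differed by 0.083, the lipid scramblase gene Atg9a by 0.054, and the PI3P readers Wipi1 and Wipi2 by -0.011 and -0.016. Wipi1 had the widest spread of the 35 in the knockout group, at 6.01 ± 0.12 log2 CPM (SD, n = 5).

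**Figure D2:**
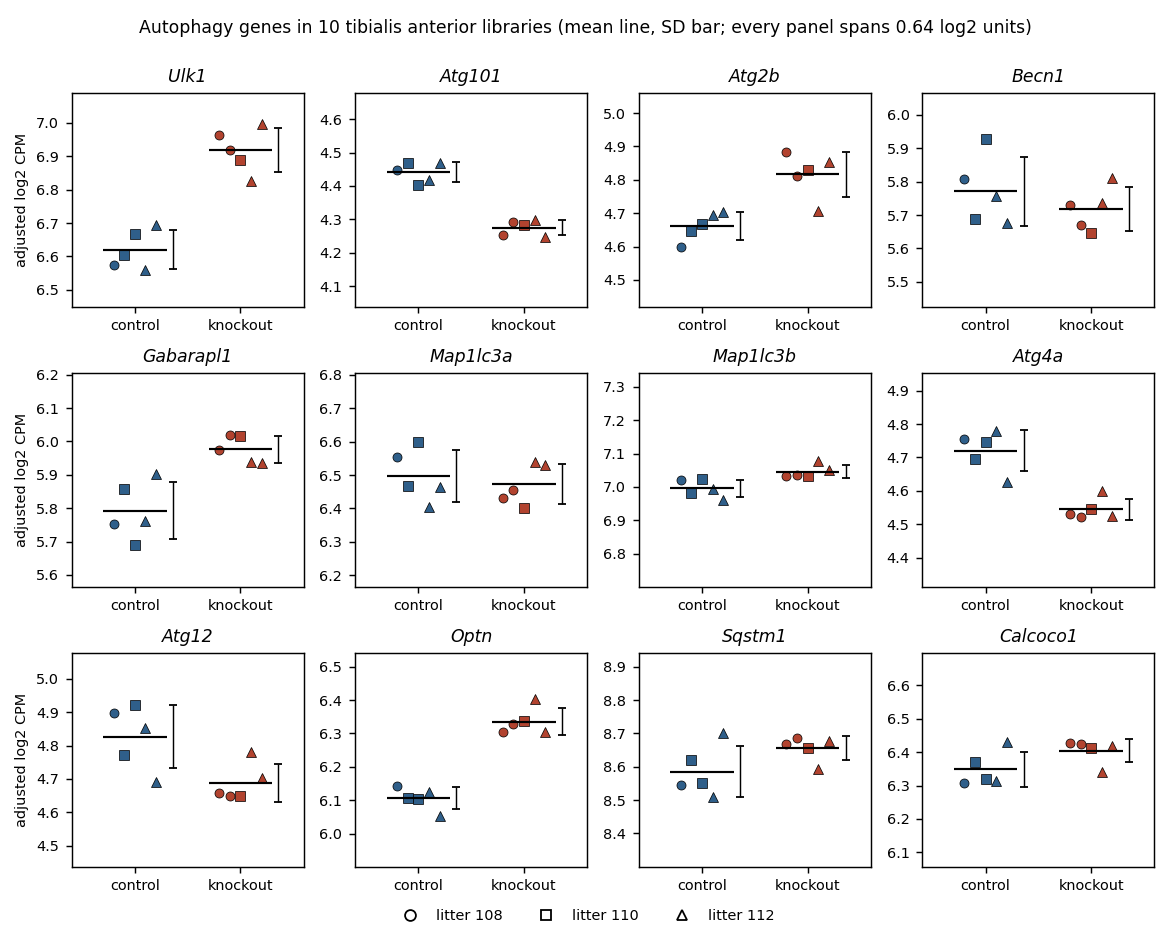
Adjusted log2 CPM (y axis) in each control and knockout library for 12 genes, with the group mean as a line, the SD as a bar (n = 5) and the litter as the marker shape. Knockout and control points are fully separate for Ulk1, Atg101, Atg2b, Gabarapl1, Map1lc3b, Atg4a and Optn, and overlap for Becn1, Map1lc3a, Atg12, Sqstm1 and Calcoco1.

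In conjugation, Gabarapl1 stood apart among the 5 genes of the ATG8 family. Gabarapl1, a GABARAP-type protein that is lipidated onto the membrane, had 5.97, 6.02, 6.02, 5.94 and 5.93 log2 CPM in the libraries labelled knockout and 5.75, 5.86, 5.69, 5.76 and 5.90 in control libraries. The lowest library labelled knockout stood just above the highest control. The log2 difference was 0.18 (SE 0.065), or 1.14-fold, with an adjusted p of 0.355 (0.0417 if those terms are ignored). Fits without 1 library gave 0.078 (knockout replicate 2), 0.10 (knockout replicate 3) and 0.12 (control replicate 1). They keep the removed terms as computed over 10 libraries, and those terms can then overlap with genotype. Litters 110 and 112, whole without knockout replicate 2, gave 0.24 and 0.10, so 0.078 does not describe the remaining libraries. Gabarapl1 is a plus-strand gene of chromosome 6 (129533160 to 129542346). Map1lc3b, which encodes the LC3 protein used most often to follow autophagosomes, had 7.03, 7.04, 7.03, 7.08 and 7.05 log2 CPM in the libraries labelled knockout and 7.02, 6.98, 7.02, 6.99 and 6.96 in control libraries. Its groups did not overlap either, with a log2 difference of 0.050 (SE 0.051; adjusted p = 0.803). Map1lc3a, a second LC3 gene, had 6.43, 6.46, 6.40, 6.54 and 6.53 log2 CPM in the libraries labelled knockout and 6.55, 6.47, 6.60, 6.40 and 6.47 in control libraries. These values were interleaved, with a log2 difference of -0.026 (SE 0.064; adjusted p = 0.933). Gabarap differed by 0.033 and Gabarapl2 by 0.022, each less than its standard error.

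The conjugation enzymes lay mostly below 0: 9 of 11 had a negative log2 difference, with a median of -0.064, where 48.6% of all genes tested were above 0. With the removed terms counted 0 of the 11 passed (limma), and 1 had an unadjusted p under 0.05, or 9.09% beside 10.1% of all genes tested. Atg4a, a protease that trims ATG8 proteins before lipidation and frees them afterwards, had 4.53, 4.52, 4.54, 4.60 and 4.53 log2 CPM in the libraries labelled knockout and 4.76, 4.69, 4.75, 4.78 and 4.63 in control libraries. All libraries labelled knockout lay below all controls. The log2 difference was -0.18 (SE 0.067), or 1.13-fold lower, with an adjusted p of 0.394 (0.027 if those terms are ignored). Atg4a lies on the X chromosome from 140956907 to 141164270 on the plus strand, and it has an annotated retrogene copy, Atg4a-ps, with which reads could be shared, so its value is uncertain. Its paralogs differed by -0.064 (Atg4b), -0.077 (Atg4c) and 0.023 (Atg4d). Atg12, the ubiquitin-like protein that is joined to ATG5, had 4.66, 4.65, 4.65, 4.78 and 4.70 log2 CPM in the libraries labelled knockout and 4.90, 4.77, 4.92, 4.85 and 4.69 in control libraries. The groups overlapped through knockout replicates 4 and 5 and control replicates 3 and 6, and the log2 difference was -0.14 (SE 0.074; adjusted p = 0.573). Atg16l1, the partner that brings the ATG12-ATG5 conjugate to the membrane, had a similar log2 difference of -0.14 (SE 0.082; adjusted p = 0.606). The others lay nearer 0, at -0.067 for Atg5, -0.041 for the E2-like enzyme gene Atg3, -0.035 for the other E2-like gene Atg10, -0.039 for Atg16l2 and 0.014 for the E1-like gene Atg7.

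Of the 4 cargo receptors, Optn alone passed in the fit that does not count the removed terms. Optn encodes optineurin, which links ubiquitinated cargo such as damaged mitochondria to ATG8 proteins. It had 6.30, 6.33, 6.34, 6.40 and 6.30 log2 CPM in the libraries labelled knockout and 6.14, 6.11, 6.10, 6.12 and 6.05 in control libraries. Every library labelled knockout lay above every control, with a log2 difference of 0.23 (SE 0.055), or 1.17-fold. The group SDs were 0.04 and 0.03, which leave out the variation removed from the values. The adjusted p was 0.165, or 0.00513 with the removed terms not counted. Optn lies on chromosome 2 from 5020642 to 5064051 on the minus strand. Sqstm1, which encodes the ubiquitin-binding receptor p62, had 8.67, 8.69, 8.65, 8.59 and 8.68 log2 CPM in the libraries labelled knockout and 8.54, 8.62, 8.55, 8.51 and 8.70 in control libraries. Control replicate 6 lay above all libraries labelled knockout, and the log2 difference was 0.070 (SE 0.061; adjusted p = 0.762). Calcoco1, a receptor for endoplasmic reticulum and Golgi fragments, had 6.43, 6.42, 6.41, 6.34 and 6.42 log2 CPM in the libraries labelled knockout and 6.31, 6.37, 6.32, 6.31 and 6.43 in control libraries. Its groups overlapped through knockout replicate 4 and control replicate 6, with a log2 difference of 0.056 (SE 0.057; adjusted p = 0.799). Nbr1, a receptor related to p62, was level between groups, at 6.29 ± 0.04 and 6.29 ± 0.06 log2 CPM (SD, n = 5 each).

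The groups did not overlap in 8 of the 35 members, or 22.9%, beside 16.2% of all genes tested. These were Ulk1, Ulk2, Atg2b, Map1lc3b, Gabarapl1 and Optn with knockout above control, and Atg101 and Atg4a with knockout below.

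Within litters, the log2 difference held its sign in all 3 for 17 of the 35 members, or 48.6%, beside 47.9% of all genes tested. Ulk1 differed by 0.37 in litter 108, 0.25 in litter 110 and 0.28 in litter 112, and Optn by 0.17, 0.23 and 0.27. Atg101 differed by -0.18, -0.15 and -0.17, and Atg4a by -0.23, -0.18 and -0.14. Gabarapl1 gave 0.24 in both litter 108 and litter 110 but 0.10 in litter 112. Wipi1 varied most, from 0.19 in litter 108 and 0.13 in litter 110 to -0.24 in litter 112. Atg12 (-0.25, -0.20 and -0.029) and Atg16l1 (-0.27, -0.22 and -0.009) also had their smallest difference in litter 112. Whether the litters differ was not tested.

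**Figure D3:**
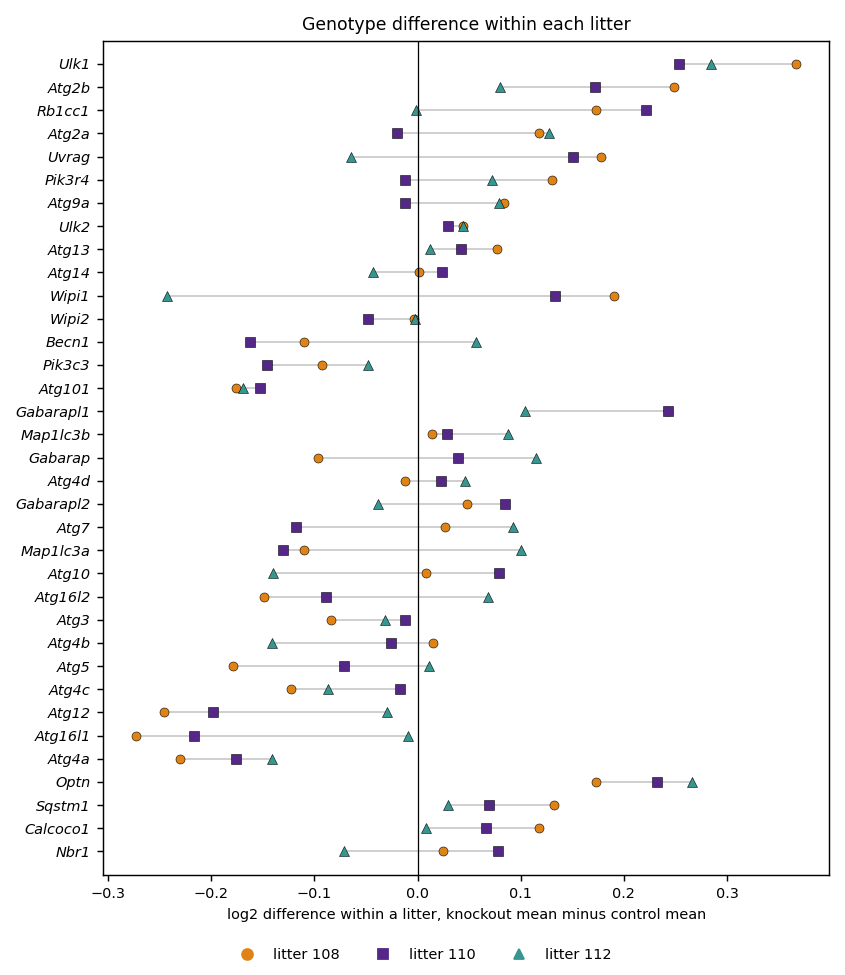
Log2 difference between the knockout mean and the control mean inside each litter (x axis) for the 35 genes (y axis), with 1 marker per litter. Ulk1, Optn, Atg101 and Atg4a keep all markers on 1 side of 0, those of Wipi1 span from -0.24 to 0.19, and the litter 108 and 110 markers of Gabarapl1 coincide.

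Levels were set side by side between genes as CPM per kilobase, taking for every gene the longest transcript in the annotation, whether or not muscle uses it. On this scale the receptor Sqstm1 was highest of the 35 at 147 ± 6.82 (SD over all 10 libraries), followed by Map1lc3a at 80.6 ± 3.77. In the ATG8 family, Gabarap came next at 45.6 ± 2.93 CPM per kilobase, then Gabarapl2 at 35.3 ± 1.10, Gabarapl1 at 32.6 ± 2.56 and Map1lc3b at 31.4 ± 0.739. Gabarapl2 lay above Gabarapl1 in each of the 10 libraries and above every Map1lc3b value (at least 32.9 against at most 32.7). The ranges of Gabarapl1 and Map1lc3b overlapped over the 10 libraries. In the libraries labelled knockout Gabarapl1 was at 33.6 to 35.6 CPM per kilobase, above all Map1lc3b values there (31.6 to 32.7). In the controls the ranges overlapped, at 28.3 to 32.9 for Gabarapl1 and 30.1 to 31.4 for Map1lc3b. The order within the family rests on the lengths taken. Before division by length Map1lc3b was its highest gene, at 132 CPM in libraries labelled knockout and 128 in controls. Map1lc3a was at 88.9 and 90.5 CPM. Among initiation genes Atg9a led at 40.0 ± 1.91 CPM per kilobase. In the libraries labelled knockout Ulk1 was at 23.2 ± 1.07 and Ulk2 at 23.2 ± 0.178 CPM per kilobase (SD, n = 5 each), and their ranges overlapped. In the controls Ulk1 was at 18.9 ± 0.766 and Ulk2 at 22.5 ± 0.172, with every Ulk1 value below every Ulk2 value. Before division by length, Ulk1 lay below Ulk2 in both groups. With the knockout label it was at most 6.997 log2 CPM, against at least 7.04 for Ulk2. The conjugation enzymes ran from 11.3 for Atg4a down to 0.628 for Atg16l2, the lowest of the 35.

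**Figure D4:**
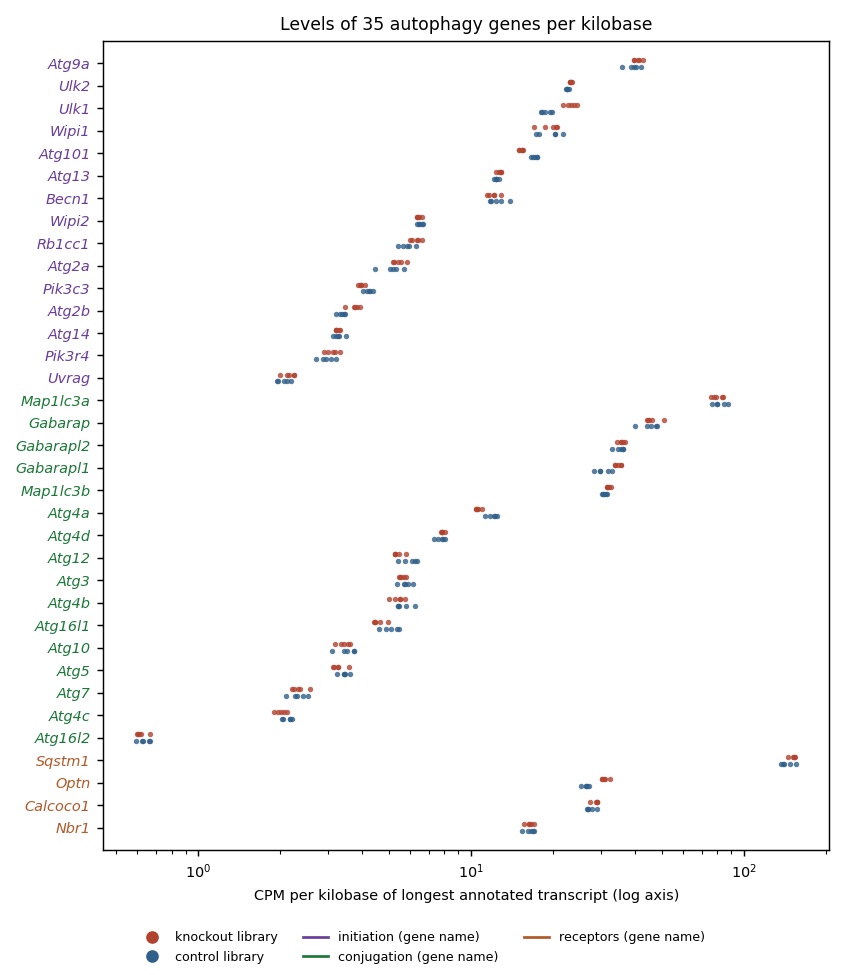
CPM per kilobase of longest annotated transcript (x axis, log scale) in each of 10 libraries for the 35 genes (y axis, gene names coloured by role), with knockout and control libraries offset. Sqstm1 is highest at 147 and Atg16l2 lowest at 0.628 on average, and the control points of Ulk1 sit to the left of those of Ulk2.

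Across all genes tested the median log2 difference went with transcript length: over 5 length classes it ran from -0.039 (shortest transcripts) to 0.045 (longest). Atg101 (1270 bases) and Atg2b (7546 bases) lie where that trend points their way, whereas Gabarapl1 (1820 bases) and Optn (2614 bases) lie against it. With each library's median within the length classes taken off, an alternative chosen after seeing the data, the log2 difference was 0.29 for Ulk1, 0.25 for Optn, 0.22 for Gabarapl1, -0.13 for Atg101, -0.15 for Atg4a and 0.11 for Atg2b, while Ulk2 turned from 0.040 to -0.0087. That fit called 0 of the 35.

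**Figure D5:**
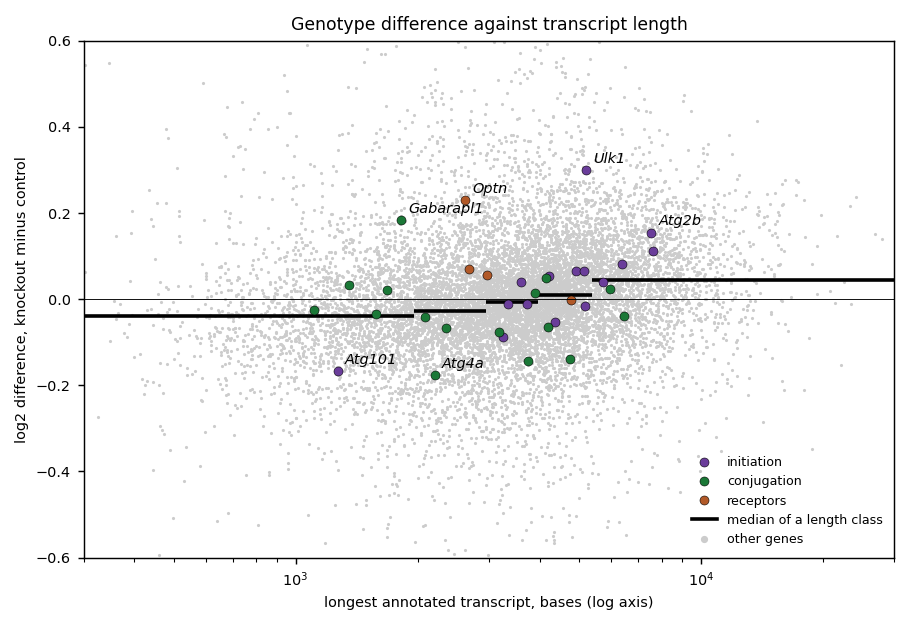
Log2 difference between knockout and control (y axis) against longest annotated transcript in bases (x axis, log scale) for all genes with a length, with the 35 members coloured by role and black lines for the median of each length class. The lines climb from -0.039 to 0.045, and 114 of 12110 genes lie outside the axes.

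Of 53 further genes of the pathway, from its upstream inputs to fusion with lysosomes, 0 passed with the removed terms counted (limma), and the median log2 difference was 0.009. An unadjusted p under 0.05 was found for 6, or 11.3% beside 10.1% of all genes tested. With those terms not counted 3 were higher and 1 lower, or 7.55% beside 8.62% of all genes tested, so the share was near the background. Usp13, a deubiquitinase that stabilises Beclin 1, had 8.60, 8.56, 8.58, 8.52 and 8.56 log2 CPM in the libraries labelled knockout and 8.37, 8.38, 8.39, 8.44 and 8.38 in control libraries. Its groups were separate, with a log2 difference of 0.17 (SE 0.053; adjusted p = 0.306, or 0.00888 with the removed terms not counted). Tfeb, a transcription factor that induces autophagy and lysosome genes, had 4.97, 4.98, 4.93, 5.01 and 5.04 log2 CPM in the libraries labelled knockout and 5.21, 5.16, 5.26, 5.10 and 5.18 in control libraries. All libraries labelled knockout lay below all controls, with a log2 difference of -0.20 (SE 0.064; adjusted p = 0.321, or 0.0185 with the removed terms not counted). The remaining pair act in fusion with lysosomes: Vps18, a subunit of the HOPS tether, had 4.12 to 4.22 log2 CPM in the libraries labelled knockout and 3.95 to 4.13 in control libraries, a log2 difference of 0.17 (SE 0.074; adjusted p = 0.463, and 0.0437 by the second fit). The tether gene Epg5 had 5.80 to 5.89 and 5.69 to 5.78 log2 CPM, a log2 difference of 0.12 (SE 0.057; adjusted p = 0.525, and 0.0485 by the second fit). By step, the median log2 difference was -0.025 for 9 inputs, 0.036 for 8 regulators of the ULK and Beclin complexes, 0.029 for 8 membrane and PI3P genes, 0.009 for 14 other receptors and 0.004 for 14 genes of tethering and fusion.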

How the data were processed

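Per the labels' protocols, TRIzol RNA from tibialis anterior went into 10 directional, oligo-dT primed libraries. The values deposited by the authors are adjusted log2 CPM for 13492 genes, and the submitters' processing notes name fastp, kallisto and limma without versions. Build, annotation, strand setting and adjustment terms: not given in the sources used here. With genotype in the fit, no litter effect above 1e-10 was left in any gene, and the residuals of genotype and litter spanned 3 of 6 dimensions, so litter and 3 further terms had been removed with genotype kept. SDs therefore leave out that variation.

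The 12223 genes whose log2 CPM averaged 0 or more entered limma 3.58.1 in R 4.3.3 (eBayes with a trend), two-sided, with litter, the 3 removed terms and genotype, leaving 3 residual degrees of freedom. Calls needed an adjusted p under 0.05 (Benjamini-Hochberg over all genes tested). A fit on litter and genotype alone is called the fit with the removed terms not counted. No pseudocount was added here. Steps were tested on simulated data. Without read depth there are no counting intervals.

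The members and lists were chosen with earlier results of these data known. Genes given with every library's value are those past the threshold in either fit, filled up to 3 per role by smallest p, plus Ulk1, Becn1, Map1lc3a, Map1lc3b, Gabarapl1 and Sqstm1. Up to 4 further pathway genes were named by the same threshold. Of the genes fixed in the role lists 1, Atg9b, has no row in the table and was not analysed here. Positions and lengths came from GENCODE M21 (GRCm38), matched by identifier for 99.1% of genes tested, and upstream sequences from RefSeq, where 29 of the 35 matched by symbol. Genes overlap several members on the opposite strand, among them 4930551O13Rik at Optn and 1700101I11Rik at Gabarapl1; without a stated strand setting their reads cannot be told apart. Alternatives covered the terms, filters, scaling, log2(CPM + 1), variance prior, transcript length, and leaving out each library or litter. Fits without 1 library kept the removed terms as computed over 10 libraries and had 2 residual degrees of freedom. The terms can then overlap with genotype, so these log2 differences need not match the means of the remaining libraries.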

Additional observations from a re-analysis of the deposited data

Results flagged for a closer look

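Among 72 groups of 5 libraries examined (the 35 members and Lrtm1 in each genotype), 1 value stood far from the rest of its group, and chance alone marks about 1 in 20. Calcoco1 was at 6.34 log2 CPM in knockout replicate 4, below the other knockout libraries at 6.41 to 6.43. Its gap to the nearest of them was 0.821 of the whole range of the group, above the critical 0.71. Knockout replicate 4 also held the lowest value of its group in 12 of the 35 members and the highest in 13; control replicate 6 had a like tally, lowest in 13 and highest in 11.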

How the results depend on the processing

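With the removed terms counted, no member and no further pathway gene passed under another filter, scaling, log scale or variance prior, with transcript length taken off, or without any single library (0 in each role). The members counted as passing were 2 of initiation, 2 of conjugation and 1 receptor (with 4 further genes) when the removed terms were not counted, and 3, 2 and 1 (with 14) with genotype alone. Litters were left out only with the removed terms not counted, so those values are set against that fit: without litter 112 the members passing were 5, 4 and 1 (with 10), and without litter 108 or 110 there were 0. Over all genes the count was 41, against 1054 with the terms not counted, 2608 with genotype alone, and 1 without a trend in the variance prior. Against the 1054, it was 15, 108 and 2220 without litters 108, 110 and 112. Against the 41, it was 11 without knockout replicate 2, 21 and 17 without knockout replicates 3 and 5, and 5, 24 and 1 without control replicates 1, 3 and 6. Fits without 1 library have 2 residual degrees of freedom rather than 3.

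Whether replicate numbers pair the libraries cannot be told from the adjusted values. Same-numbered deviations from the group mean correlated at -0.85, 0.45, 0.032 and -0.50, and no library correlated best with its own number. The removal of litter makes the deviations within a litter cancel, which by itself shapes these correlations. The fit with a replicate block on 8 libraries, removed terms not counted, called 127 genes and 1 initiation gene (Ulk1), and gave Wipi1 0.018 and Gabarap -0.002235.

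Lrtm1 fell short at 0.44 without a variance trend (adjusted p = 0.3154) and 0.39 with length taken off (0.0527). With the removed terms not counted (0.00381) it fell short at 0.39 without litter 108 (0.0795). Leaving out each library gave 0.31 to 0.50, short of the threshold in 8 of 10, with the limit of those fits given above.

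Small log2 differences changed sign between fits. The fits without 1 library keep the removed terms as computed over 10 libraries, and these can then overlap with genotype. Their values can lie outside what the remaining libraries show. A change of sign there therefore does not show that a single library sets the sign. Leaving out each library gave Rb1cc1 -0.0336 to 0.17, Atg13 -0.00317 to 0.0583, Becn1 -0.13 to 0.092, Pik3r4 -0.012 to 0.17, Atg14 -0.0584 to 0.0415, Uvrag -0.059 to 0.11, Wipi1 -0.24 to 0.0692, Wipi2 -0.0442 to 0.0275, Atg3 -0.0854 to 0.0128, Atg5 -0.12 to 0.0589, Atg7 -0.0864 to 0.19, Atg10 -0.19 to 0.0547, Atg16l1 -0.21 to 0.000379, Atg16l2 -0.0867 to 0.0846, Atg4b -0.15 to 0.0277, Atg4d -0.0107 to 0.074, Map1lc3a -0.0693 to 0.11, Gabarap -0.0447 to 0.18, Gabarapl2 -0.0632 to 0.0638, Sqstm1 -0.00413 to 0.12, Nbr1 -0.11 to 0.0497, Calcoco1 -0.0127 to 0.0929. Without litter 112 Atg14 was 0.013, Wipi1 0.16, Atg7 -0.046, Atg10 0.044, Gabarap -0.029 and Nbr1 0.051. Without litter 108 Atg16l2 was 0.005375 and Map1lc3a 0.0083; without litter 110 Map1lc3a was 0.016 and Gabarapl2 -0.003736. With length taken off Ulk2 was -0.0087, Atg10 0.0034, Atg4d -0.026 and Map1lc3a 0.013, and with libraries centred on their median Nbr1 was 0.00189. Ulk1, Atg101, Atg2b, Gabarapl1, Atg4a and Optn kept their sign in every alternative run, but size varied. Pik3c3, Atg2a, Atg9a, Atg12, Atg4c and Map1lc3b also kept theirs. The share of all genes that does so was not computed. With the same limit, fits without 1 library gave Atg2b 0.049 and Atg4a -0.12 (control 1), Gabarapl1 0.078 (knockout 2) and Atg12 -0.020 (control 1). Such fits also gave Tfeb -0.088 (knockout 3), Vps18 0.095 (control 1) and Epg5 0.055 (control 1 or knockout 3). Litters 110 and 112, whole without control 1, gave Atg4a -0.18 and -0.14 and Atg12 -0.20 and -0.029. These sizes therefore do not show how much a single library carries.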

Other observations

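The further pathway genes named here passed in neither fit and were picked after their values were seen. Retreg1, a receptor for fragments of the endoplasmic reticulum, had a log2 difference of 0.24 (limma adjusted p = 0.0590 with the removed terms not counted, then 0.32 when they are, in that order for each gene here). Wdfy3, a large adaptor for protein aggregates, differed by 0.19 (adjusted p = 0.0531 and 0.373). Foxo1, a transcription factor that induces autophagy genes in muscle, differed by -0.20 (adjusted p = 0.110 and 0.451). Tecpr1, which acts in autophagosome-lysosome fusion, differed by 0.076 (adjusted p = 0.0916 and 0.721) with groups that did not overlap, and the mitophagy receptor gene Bnip3 by 0.13 (adjusted p = 0.105 and 0.510). Foxo3, a relative of Foxo1, differed by 0.038.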
